A study of Mus musculus with 2 samples.

Results

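Hedgehog signalling was followed here through 9 genes in single cranial neural crest cells (CNCCs) of the embryonic mouse head, in a control and a Tfap2 mutant. The genes are the ligand Shh, its receptor Ptch1, the signal transducer Smo, the transcription factors Gli1, Gli2 and Gli3, the ligand-binding antagonist Hhip and the co-receptors Gas1 and Boc. They were chosen by symbol, and all 9 of 9 are among the 32285 genes of the count tables. Both groups were E11.5 embryos that carried the Wnt1:CRE transgene and the mTmG reporter, which turns recombined cells GFP-positive, and GFP-positive head cells were sorted before droplet capture. The control was Tfap2a wt/flox; Tfap2b wt/flox, so 1 copy of each gene was already lost in its recombined cells, and the mutant was Tfap2a flox/flox; Tfap2b flox/flox. Cells of 2 embryos were pooled into 1 library for each genotype. The Wnt1 promoter also drives recombination in the dorsal neural tube, so the sorted cells hold brain cells as well as crest.

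In Hedgehog signalling, secreted SHH binds PTCH1, which otherwise holds SMO inactive at the primary cilium. Active SMO turns GLI2 and GLI3 from repressing to activating forms, and the activators switch on Gli1, Ptch1 and Hhip, which are therefore read as response genes. GAS1, BOC and the related CDON bind the ligand together with PTCH1 and help reception. In the face, SHH comes mainly from epithelium and acts on the mesenchyme below, where it is known for control of midfacial width. In the ventral midline of the brain it comes from the floor plate.

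The control library held 6148 barcodes and 83542433 UMIs (counted RNA molecules), and the mutant library 6063 barcodes and 79206144 UMIs. After filtering, 5625 control and 5587 mutant cells were kept, with medians of 13478 and 12234 UMIs. Since there was 1 library for each genotype, no difference between genotypes could be tested. Levels are given as UMIs scaled to 1000000 UMIs of the same cells (CPM), and each log2 ratio is of mutant over control CPM, with its exact 95% counting interval in parentheses. The intervals cover counting error only, and UMIs of 1 cell are not independent draws. Xist was detected in 98.8% of control and 0.107% of mutant cells, and Y-linked genes in 0.0356% and 82.0%, so an effect of genotype and one of sex cannot be told apart. Tfap2a read 19.4 CPM in control and 13.4 CPM in mutant mesenchyme, and Tfap2b 56.2 and 47.5 CPM. The glia-like cells read 78.7 CPM of Tfap2a in control and 120.1 CPM in mutant (0.61, 0.40 to 0.81). Transcript ends that lie outside a deleted part still count, so these values do not check the labels. The libraries shared 6 barcodes, of which 5 were kept in both. Scrublet called 1.65% of control and 3.06% of mutant cells doublets. In control, 98.9% of the blood marker UMIs lay in 10 cells.

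Clustering without the Hedgehog genes gave a mesenchyme-like class (3760 control and 2818 mutant cells), a neural class (1604 and 2571) and a glia-like class (261 and 198). Mesenchyme fell into a frontonasal-like cluster (978 and 525 cells), a maxillary-like cluster (922 and 732), 2 mandibular-like clusters and a mural-like cluster (387 and 394), where mural cells are those that wrap vessels. The mandibular-like clusters were led by Dlx3, Emx2 and Hoxa2 in one (721 and 714 cells) and by Hand1 and Hand2 in the other (710 and 372). Hoxa2 is also a marker of the second pharyngeal arch, which the dissected heads included. The Dlx3-led cluster may thus hold second-arch cells under its mandibular-like name, and it was not split further. A further small mesenchyme cluster (42 and 81 cells) was led by neural genes, and 73.8% and 72.8% of its cells were called doublets. The shares of these regions differed between the libraries, so the values below are given by cluster before those of the whole class. The epithelial markers, from the main source of facial SHH, summed to 8.91 CPM in control and 9.63 CPM in mutant mesenchyme over 8 genes.

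The RefSeq table (GRCm38.p6) holds promoters, 250 bases before to 50 after the start, for 6 of the 9 genes: Ptch1, Smo, Gli2, Gli3, Hhip and Gas1. Entries for Shh, Gli1 and Boc are named only. The promoters of Hhip and Ptch1, response genes described next, and of Gas1, a co-receptor whose difference changed sign between clusters, are printed 5′ to 3′ on the gene's strand. Capitals mark matches to GCCNNNGGC, the palindromic consensus bound by TFAP2 proteins. Hhip lies at chr8:80057959-80058258, Ptch1 at chr13:63565686-63565985 and Gas1 at chr13:60177486-60177785, all on the minus strand.
Hhip: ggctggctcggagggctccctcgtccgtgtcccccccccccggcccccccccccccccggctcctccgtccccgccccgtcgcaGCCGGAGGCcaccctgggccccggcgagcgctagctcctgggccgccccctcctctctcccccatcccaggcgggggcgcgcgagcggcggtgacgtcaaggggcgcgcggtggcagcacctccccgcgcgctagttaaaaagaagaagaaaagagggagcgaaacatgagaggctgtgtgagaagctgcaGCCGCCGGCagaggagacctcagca
Ptch1: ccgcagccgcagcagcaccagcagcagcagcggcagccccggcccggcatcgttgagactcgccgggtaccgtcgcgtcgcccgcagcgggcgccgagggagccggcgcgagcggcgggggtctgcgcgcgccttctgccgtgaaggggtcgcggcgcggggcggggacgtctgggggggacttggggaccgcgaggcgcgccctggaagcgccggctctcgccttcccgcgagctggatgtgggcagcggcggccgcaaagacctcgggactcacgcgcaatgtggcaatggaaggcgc
Gas1: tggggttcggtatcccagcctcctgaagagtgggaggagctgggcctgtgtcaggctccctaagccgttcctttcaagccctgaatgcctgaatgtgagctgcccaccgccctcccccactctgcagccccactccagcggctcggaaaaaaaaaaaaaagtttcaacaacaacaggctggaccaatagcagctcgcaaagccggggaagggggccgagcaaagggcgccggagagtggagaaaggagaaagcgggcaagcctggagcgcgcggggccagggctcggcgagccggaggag
Hhip held 2 matches, whose first bases lie 166 bases before and 25 bases after the first transcribed base. The other 5 promoters held none, and 16.6% of 32851 promoters held at least 1. None of the 6 held the GLI consensus GACCACCCA on either strand, which was present in 83 of all promoters (0.253%). A match is a description of letters and not a bound site, and other windows were not searched.

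In frontonasal-like cells, all response genes were higher in the mutant library. Ptch1 read 55.7 CPM in control and 73.7 CPM in mutant, a log2 ratio of 0.40 (0.26 to 0.55). Gli1, the transcription factor most often used as a Hedgehog readout, read 9.03 and 12.2 CPM, a log2 ratio of 0.43 (0.06 to 0.80), from 147 and 106 UMIs. Hhip, the antagonist, read 3.44 and 5.75 CPM from 56 and 50 UMIs, a log2 ratio of 0.74 (0.16 to 1.32). The intervals of all 3 lay above 0. Gli2 was also higher, at 24.7 and 29.3 CPM (0.25, interval 0.02 to 0.48), while Smo read 92.0 and 102 CPM (0.14, 0.02 to 0.27) but had a log2 ratio of -0.017 in cells thinned to 5000 UMIs. Thinning kept the direction of the other 4 and moved Gli1 to 0.90, Gli2 to 0.46 and Hhip to 0.44, and Ptch1 was 0.25 when every cell counted equally. Gli3 read 92.1 and 93.9 CPM and Gas1 313 and 312 CPM, with intervals that included 0. Boc read 18.5 and 16.2 CPM (-0.19, -0.49 to 0.10) and had a log2 ratio of 0.33 in thinned cells. Marker sums differed between the libraries here too. The 7 frontonasal-like markers summed to 1046 CPM in control and 800 CPM in mutant. The 8 neuron-like markers summed to 47.2 and 76.8 CPM, and the 5 floor plate markers to 6.45 and 18.7 CPM. The 8 mesenchyme-like markers were closer, at 1745 and 1712 CPM. The part of cell makeup in the ratios of the frontonasal-like cells was not tested.

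Of the 9 genes, 7 had 100 or more UMIs in at least 1 library in this cluster, and 4 of them had an interval above 0, against 14.5% of the 9420 genes with as many UMIs. Their median log2 ratio was 0.14, against 0.01 over those genes. None of the 7 differed by 1.5-fold or more, against 2.66% of genes in either direction; Hhip, below 100 UMIs, did. In cells also grouped together by a finer clustering (947 and 497 cells), the log2 ratios were 0.40 for Ptch1, 0.41 for Gli1 and 0.64 for Hhip, with intervals above 0, while that of Smo, 0.10 (-0.03 to 0.22), included 0. The finer cluster alone also took in 207 control and 195 mutant maxillary-like cells and 14 and 30 cells of the doublet-rich cluster, and it held 2 and 24 Shh UMIs. In it Gli1 had a log2 ratio of 0.30 (-0.04 to 0.64) and Ptch1 0.35 (0.21 to 0.48).

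**Figure D1:**
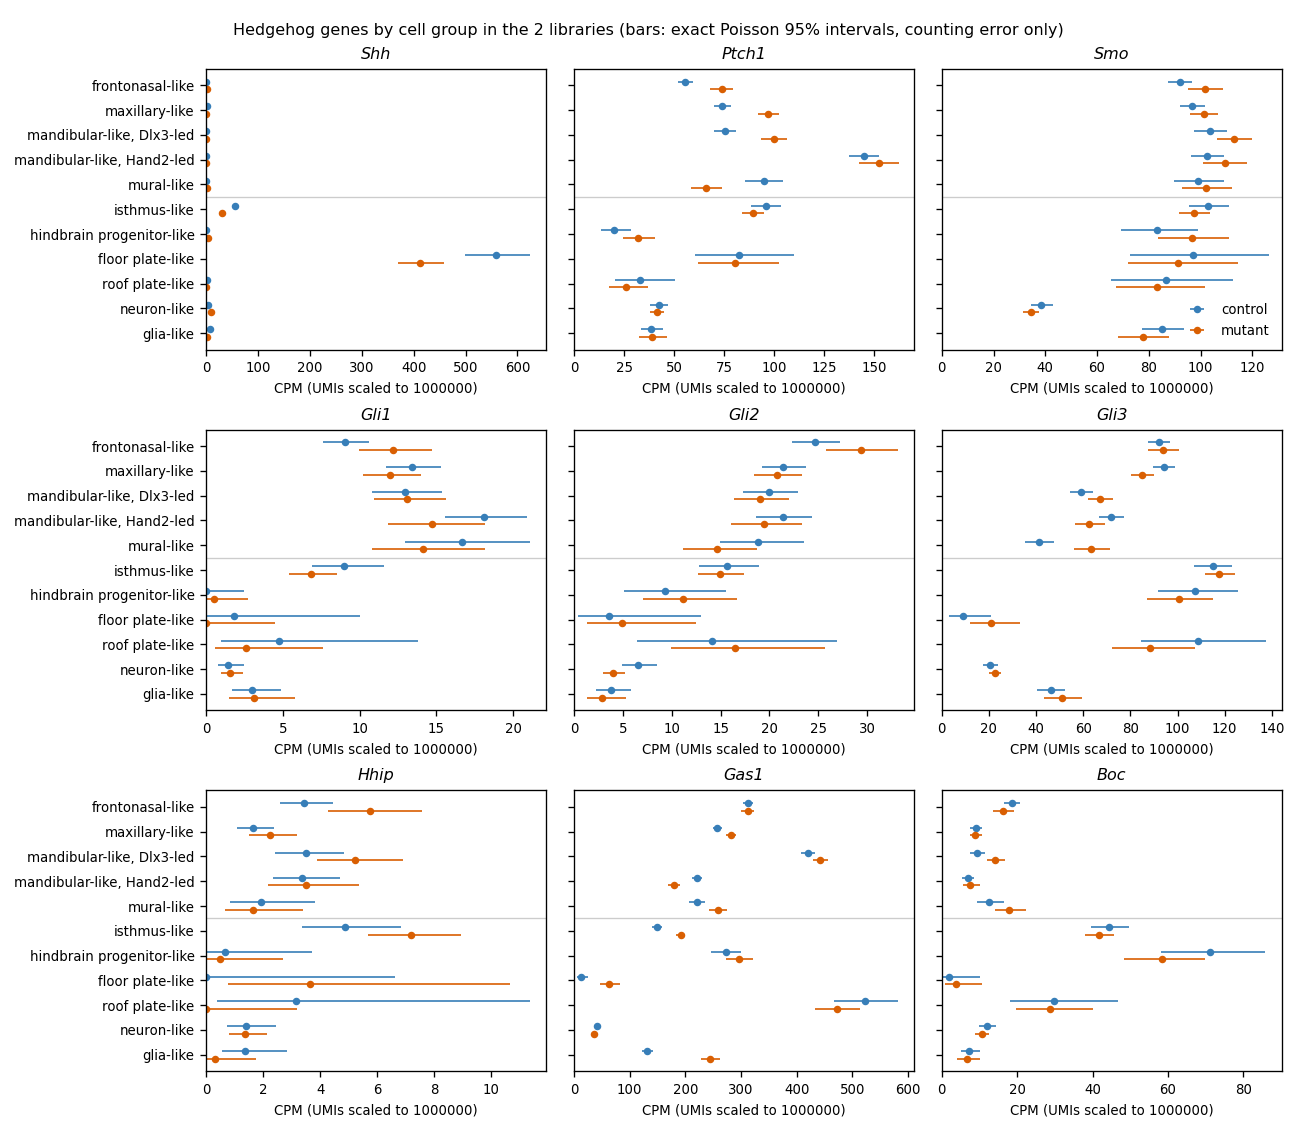
Levels of the 9 genes in CPM (x axis, linear from 0) in the mesenchyme clusters (above the grey line) and in neural and glial groups (below), for the control (blue) and mutant (orange) libraries, with exact 95% Poisson intervals as bars. Ptch1 in the frontonasal-like cells lies at 55.7 and 73.7 CPM, Shh in the floor plate-like cells at 559 and 411 CPM, and Gas1 in the glia-like cells at 132 and 244 CPM.

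Downstream of the members, several forkhead genes that respond to Hedgehog in facial mesenchyme also differed in the same cells. Of the 8 facial targets, 7 had enough UMIs in frontonasal-like cells, 6 had an interval above 0 and 1 below 0, against 14.5% and 9.32% of all 9420 genes, and their median was 0.94, against 0.01. Foxf2 read 8.84 and 23.1 CPM (1.39, 1.07 to 1.71) and Foxd1 56.3 and 129 CPM (1.19, 1.07 to 1.32). Foxc2 read 30.8 and 59.2 CPM (0.94, 0.76 to 1.12), and Foxp2 101 and 193 CPM (0.94, 0.84 to 1.04). Foxf1 went the other way, at 21.4 and 13.8 CPM (-0.63, -0.94 to -0.33), as did the co-receptor gene Cdon at 30.8 and 19.2 CPM (-0.68, -0.94 to -0.42). Foxd1, Foxf2, Foxp1 and Foxp2 were named in the study from these samples. Their direction, and the counts and median of the list that hold them, are therefore no independent evidence. Of the other targets with enough UMIs in frontonasal-like cells, Foxc2 and Foxd2 (0.42, 0.07 to 0.77) had intervals above 0 and Foxf1 below 0. Across all mesenchyme-like cells, 7 of the 8 facial targets had an interval above 0 and Foxf1 below 0, against 21.6% and 14.1% of 11649 genes.

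**Figure D2:**
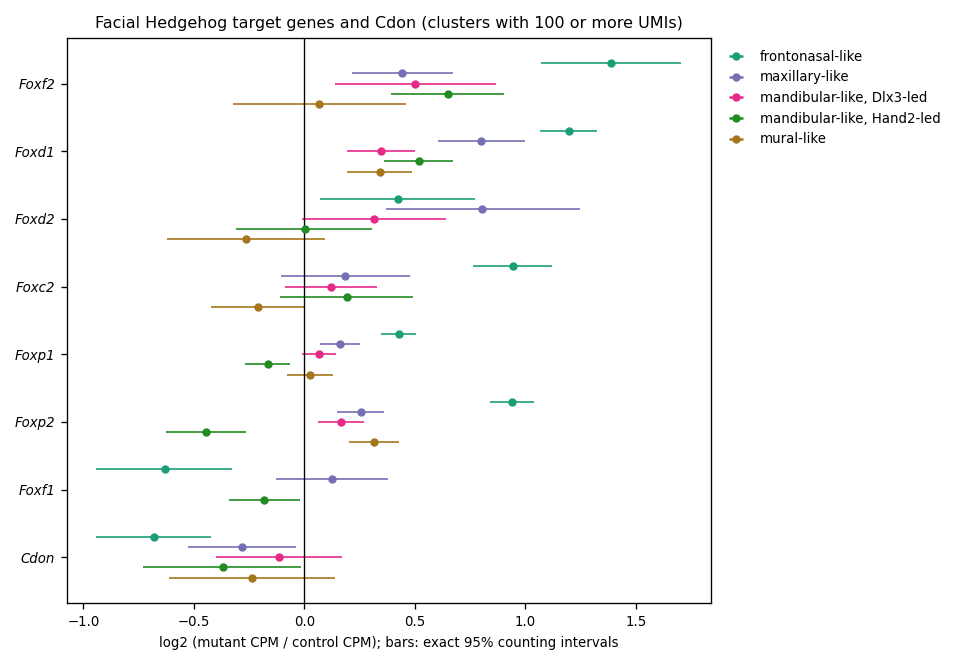
Log2 ratios of mutant over control CPM (x axis) for facial Hedgehog target genes and Cdon in the 5 mesenchyme clusters, with exact 95% counting intervals as bars, shown where a library had 100 or more UMIs. The frontonasal-like points of Foxf2 (1.39), Foxd1 (1.19), Foxc2 (0.94) and Foxp2 (0.94) are the farthest to the right for each gene, while those of Foxf1 (-0.63) and Cdon (-0.68) lie to the left.

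Ptch1 differed by cluster in size and direction. It was also higher in the mutant in maxillary-like cells (74.2 and 97.1 CPM, 0.39, 0.27 to 0.50) and in the Dlx3-led mandibular-like cells (75.3 and 99.9 CPM, 0.41, 0.27 to 0.55). The Hand2-led mandibular-like cells had the highest control level, 145 CPM, and 152 CPM in mutant (0.07, -0.05 to 0.19). In mural-like cells Ptch1 was lower, at 94.7 and 66.0 CPM (-0.52, -0.75 to -0.30). Other markers moved in that cluster: the 7 frontonasal-like markers summed to 792 and 558 CPM, the 8 neuron-like markers to 55.8 and 126 CPM and the 5 floor plate markers to 44.9 and 72.3 CPM, and their part in its Ptch1, Gli3 and Gas1 values was not tested. Outside the frontonasal-like cells the intervals of Gli1 included 0, in maxillary-like (-0.16, -0.46 to 0.14), Dlx3-led (0.02, -0.35 to 0.38), Hand2-led (-0.30, -0.68 to 0.08) and mural-like cells (-0.24, -0.76 to 0.28). Hhip read 3.49 and 5.24 CPM in Dlx3-led cells from 35 and 50 UMIs (0.59, -0.06 to 1.25; 1.33 in thinned cells), and its interval included 0 in the maxillary-like, Hand2-led and mural-like cells too.

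Gli3, whose protein is a main repressor of Hedgehog targets, was higher in mutant mural-like cells, at 41.1 and 63.4 CPM (0.63, 0.34 to 0.91). It was also higher in Dlx3-led cells, at 59.2 and 67.1 CPM (0.18, 0.02 to 0.35). It was lower in maxillary-like (94.3 and 85.1 CPM, -0.15, -0.26 to -0.04) and Hand2-led cells (71.7 and 62.6 CPM, -0.19, -0.38 to -0.01). In mural-like cells Ptch1 and Gli3 thus differed in opposite directions. Gli2 had intervals that included 0 in these 4 clusters. Smo, which passes the signal on, ranged over the 5 clusters from 92.0 to 104 CPM in control and from 101 to 113 CPM in mutant.

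**Figure D3:**
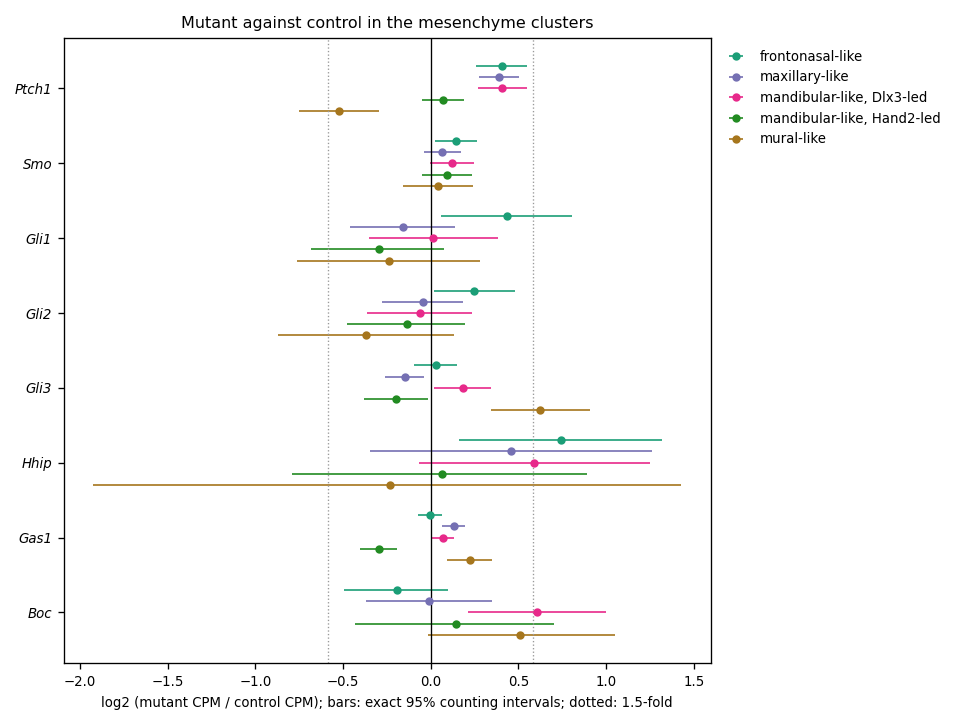
Log2 ratios of mutant over control CPM (x axis) of 8 of the 9 genes in the 5 mesenchyme clusters, with exact 95% counting intervals as bars and dotted lines at a 1.5-fold difference. Shh is left out for its few UMIs. Ptch1 lies at 0.40, 0.39 and 0.41 in the frontonasal-like, maxillary-like and Dlx3-led clusters and at -0.52 in the mural-like cluster, where Gli3 lies at 0.63.

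Gas1, which anchors to the cell surface, was detected in most mesenchyme cells at equal depth: 57.5% of control and 57.0% of mutant cells thinned to 5000 UMIs. It read 421 and 442 CPM in Dlx3-led cells (0.07, 0.01 to 0.13, but -0.0014 in thinned cells), 258 and 282 CPM in maxillary-like cells (0.13, 0.07 to 0.19) and 221 and 258 CPM in mural-like cells (0.22, 0.09 to 0.35). In the Hand2-led cells, where Ptch1 was highest, it was lower in the mutant, at 220 and 179 CPM (-0.30, -0.40 to -0.19). Boc, a transmembrane co-receptor, was higher in the Dlx3-led cells, at 9.36 and 14.2 CPM (0.61, 0.22 to 1.00). It read 12.6 and 17.9 CPM in mural-like cells (0.51, -0.02 to 1.05), 8.99 and 8.94 CPM in maxillary-like cells and 6.82 and 7.53 CPM in Hand2-led cells.

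With 100 or more UMIs, 2 of 7 members had an interval above 0 in maxillary-like cells and 1 below, against 11.0% and 8.74% of genes. In the Dlx3-led cells 4 of 7 lay above, against 14.5%, and 1 of them, Boc, was higher by 1.5-fold or more, against 1.97%. In the Hand2-led cells 2 of 6 lay below, against 9.45%. In mural-like cells 2 of 4 lay above and 1 below, against 11.2% and 11.6%, and 1 of them, Gli3, was higher by 1.5-fold or more, against 2.47%.

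Over all mesenchyme-like cells together the ratios were mostly closer to 0. Ptch1 read 82.8 and 97.7 CPM (0.24, 0.18 to 0.30), Gli1 13.0 and 12.8 CPM (-0.02, -0.18 to 0.14), Hhip 2.75 and 3.73 CPM (0.44, 0.12 to 0.76) and Gas1 292 and 305 CPM (0.06, 0.03 to 0.10). Of the 8 members with 100 or more UMIs, 5 had an interval above 0 and 0 below, against 21.6% above and 14.1% below among 11649 genes, and none differed by 1.5-fold, against 3.21% of genes. Intervals that leave out 0 were thus common at this depth. Boc read 11.8 and 13.3 CPM (0.17, 0.01 to 0.34), and without the doublet-rich cluster its log2 ratio was 0.09 (-0.08 to 0.25).

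**Figure D4:**
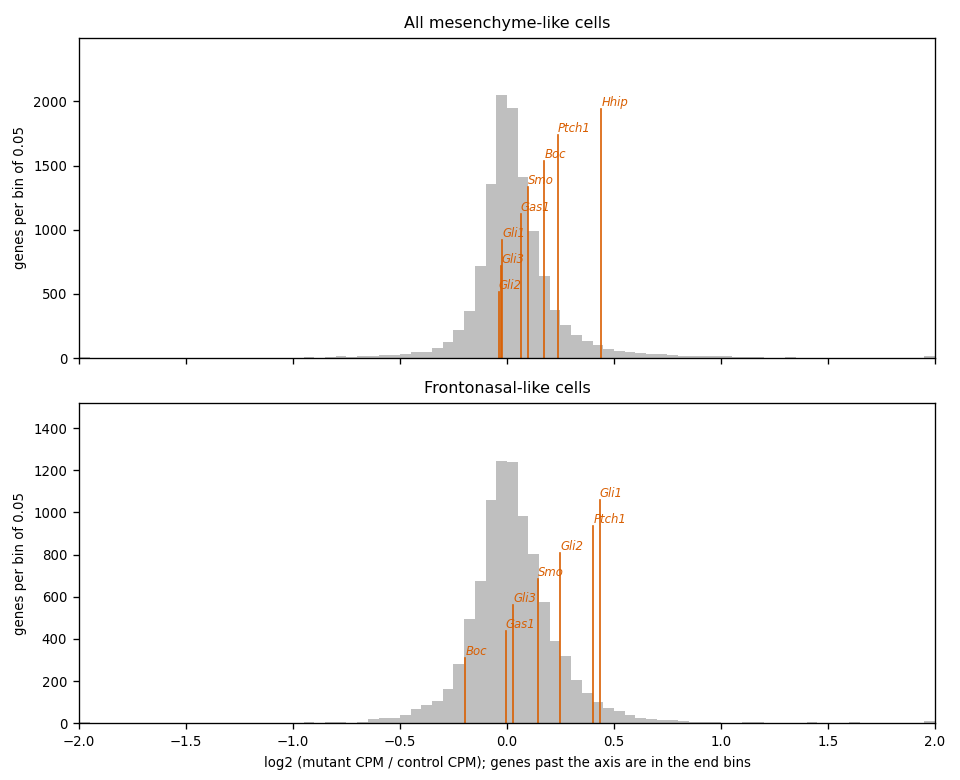
Number of genes (y axis) by log2 ratio of mutant over control CPM (x axis, bins of 0.05) among genes with 100 or more UMIs, in all mesenchyme-like cells (top) and in frontonasal-like cells (bottom), with the members at that depth as orange lines whose height has no meaning. In the lower panel Gli1 (0.43) and Ptch1 (0.40) lie to the right of most genes and Boc (-0.19) to the left.

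Shh was almost confined to neural cells, with 792 of 843 control and 893 of 955 mutant UMIs. Among the finer neural clusters, an unnamed one (86 control and 148 mutant cells) held 73 and 103 Shh UMIs. Its Shh log2 ratio was -0.32, with an interval that included 0, and its floor plate markers summed to 435 and 425 CPM. The cluster with the highest sum of these markers is called floor plate-like here (51 control and 78 mutant cells). There Shh read 559 CPM in control and 411 CPM in mutant (-0.44, -0.67 to -0.21), and 87.8% and 80.3% of thinned cells had a UMI. Foxa2, a floor plate transcription factor, had a log2 ratio of -0.23 in the same cells, with an interval that included 0. The 5 floor plate markers together summed to 1192 CPM in control and 1257 CPM in mutant there, and the mesenchyme markers to 41.3 and 267 CPM. The mutant floor plate-like cells held 51 Gas1 UMIs against 7 in control, of which 17 lay in 1 cell, and the part of the mesenchyme markers in the result was not tested.

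In the isthmus-like progenitors, named for marker genes of the midbrain-hindbrain boundary, Shh read 55.9 and 30.8 CPM (-0.86, -1.08 to -0.65). They made up 533 of 658 control and 893 of 1062 mutant brain progenitor-like cells, so the name does not place all of them at that boundary. In control 65 of 533 cells had a Shh UMI, and in mutant 66 of 893 cells did. Brain progenitor-like cells as a whole read 45.7 and 26.4 CPM (-0.79, -1.01 to -0.58). Of the 7 members with enough UMIs in these cells, 1 interval lay below 0 and 1 above, against 6.88% and 6.31% of 9098 genes. The one below was Shh, also the 1 member lower by 1.5-fold or more, against 0.385% of genes. The one above was Gas1, at 171 and 208 CPM (0.28, 0.19 to 0.38), with a UMI in 45.1% and 52.2% of thinned cells. In the isthmus-like cells alone Gas1 read 149 and 192 CPM (0.37, 0.26 to 0.47).

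The intervals of the response genes included 0 in the brain progenitor-like cells. Ptch1 read 82.0 and 80.3 CPM (-0.03, -0.17 to 0.11) and Gli1 7.36 and 5.81 CPM (-0.34, -0.85 to 0.17), and Hhip read 4.10 and 6.12 CPM (0.58, -0.02 to 1.20). Gli3 read 114 and 115 CPM. Of the neural groups, the hindbrain progenitor-like cells had the lowest control Ptch1 of the progenitor groups (19.9 CPM, from 30 UMIs) and the highest Boc (71.1 and 58.4 CPM, -0.28, -0.67 to 0.11). The roof plate-like cells, led by Ttr, Clic6 and Foxj1, genes also known from choroid plexus, had the highest Gas1 of all groups (522 and 472 CPM, -0.15, -0.35 to 0.05). The 8 roof plate markers summed to 2425 CPM in control and 8447 CPM in mutant there, and their part was not tested. The floor plate-like cells had the lowest control Gas1 but for the sensory neuron-like cells, with 7 UMIs.

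In neuron-like cells (763 and 1201), Gli1 was near absent, at 1.41 and 1.57 CPM from 12 and 21 UMIs, which is the level to set beside its 13.0 CPM in mesenchyme. Gas1 read 40.6 and 36.6 CPM and Smo 38.4 and 34.4 CPM, with intervals that included 0. Gli2 read 6.56 and 3.95 CPM from 56 and 53 UMIs (-0.73, -1.30 to -0.16). Shh read 3.28 and 7.98 CPM (1.28, 0.67 to 1.94), but 59.8% of the 107 mutant UMIs lay in 10 cells. Of the 6 members with 100 or more UMIs, Shh was the 1 with an interval above 0, against 12.6% of 9550 genes, and the 1 higher by 1.5-fold or more, against 1.45%. Of the ventral neural targets, Nkx2-2 (0.76), Nkx6-1 (0.74) and Nkx6-2 (0.86), which mark ventral domains, had intervals above 0. They were 3 of the 4 with enough UMIs, against 12.6% of the 9550 genes. The makeup of the class differed, with 49 of 763 control and 147 of 1201 mutant cells in the inhibitory neuron-like cluster. In that cluster 0 of the 2 ventral targets with enough UMIs lay above 0 and 1 below, with a median of -0.15. The shares over its 2761 genes were 5.47% and 4.96%. In the largest neuron cluster, led by Otp, 2 of 2 lay above, against 11.6% of 8127 genes, with a median of 0.74.

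Glia-like cells showed the largest co-receptor difference among the classes. Gas1 read 132 CPM in control and 244 CPM in mutant (0.89, 0.74 to 1.04), and 40.9% and 58.9% of thinned cells had a UMI. It was the 1 of 4 members with 100 or more UMIs that differed by 1.5-fold or more, against 4.34% of 6481 genes that were higher by as much, and the 1 with an interval above 0, against 17.6%. Neuron-like markers moved with it: all 8 were detected in both libraries, and they summed to 2836 CPM in control and 468 CPM in mutant glia-like cells. Without the cells that had more neuron-like than glia-like marker UMIs, 175 control and 186 mutant cells stayed, and Gas1 read 178 and 257 CPM (0.53, 0.38 to 0.69), below 1.5-fold. Ptch1 (38.7 and 38.8 CPM), Smo (85.0 and 77.6 CPM) and Gli3 (46.1 and 51.0 CPM) had intervals that included 0. Shh had 31 control UMIs in 4 cells and 2 mutant UMIs in 2 cells. Among the other pathway genes, Scube1, which helps release of the ligand, had a log2 ratio of 1.00 and Mycn, a growth regulator, -1.27. Dhh, the ligand of Schwann cells, had 55 and 81 UMIs (1.23, 0.72 to 1.75), below the count minimum.

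Within thinned mesenchyme-like cells, a Ptch1 UMI was more frequent among cells with a Gli1 UMI. In control, 44.7% of cells with a Gli1 UMI also had a Ptch1 UMI (95% Clopper-Pearson interval 38.2 to 51.4), against 26.1% (24.6 to 27.6) of cells without one. The mutant values were 48.8% (41.2 to 56.6) and 28.3% (26.5 to 30.0). These shares pool clusters that differ in both genes. Frontonasal-like cells had 34.3% (19.1 to 52.2) and 18.8% (16.3 to 21.4) in control. In mutant they had 30.3% (15.6 to 48.7) and 25.1% (21.3 to 29.1). Intervals also overlapped in control Dlx3-led, control Hand2-led and mutant mural-like cells. They did not overlap in the other library of those clusters or in maxillary-like cells of either library. By cell cycle phase call in all mesenchyme-like cells, control Gas1 read 249 CPM in G1, 269 CPM in S and 326 CPM in G2M cells, while Ptch1 read 101, 79.2 and 76.9 CPM. In the mutant, Gas1 read 246, 300 and 338 CPM and Ptch1 110, 82.6 and 102 CPM. The libraries were thus farthest apart in Ptch1 among G2M cells, and the part of phase in the Ptch1 difference was not tested. Phase calls alone do not show cycling.

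Over 11 control cell clusters with 50 or more cells, which share 1 library, 10923 genes were ranked by how closely their levels followed Gli1, Gas1 or Boc. The clusters included the neural cluster with mesenchyme-like markers and many called doublets. Picking the top 5 of so many genes over 11 clusters gives high values in itself, so the ranking is a description only. The 5 closest genes are named for each member. For Gli1 these were Kctd12b (Pearson's r of log2 CPM 0.99), Flrt3 (0.97), Col27a1, Obsl1 and Zdhhc15. For Gas1 they were Adk (0.99), Bckdhb (0.99), Rbm3, Tcf3 and Slfn9. For Boc they were Nmnat1 (0.93), Got1, Ints13, Oscp1 and Smad4, which reached only 0.44 to 0.75 over the mutant clusters, whereas those of Gli1 and Gas1 reached 0.86 or more there. The mutant clusters came from the same joint clustering, so their values are no independent check.

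By GENCODE annotation of GRCm38, Shh (chr5:28456815-28467256), Gli1 (chr10:127329882-127341974), Gli3 (chr13:15463235-15730026) and Gas1 (chr13:60174405-60177365) overlap counted genes on the opposite strand: 9530036O11Rik, Arhgap9 with Gm47200, Gm6556 and Gm48488. Where counting ignored strand, reads of such partners cannot be told apart from those of the member.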

How the data were processed

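Droplet single-cell RNA-seq was made from 1 pooled library of 2 embryos for each genotype, and the groups were taken from the sample labels. The authors deposited filtered count matrices, UMI counts per gene and cell that were not normalized, made with Cell Ranger (6.0.0 per the file headers) on mm10; the submitters' processing notes also name bcl2fastq and Seurat 4.3.0. Cells with 200 to 7500 genes and at most 10% mitochondrial UMIs were kept, which removed 523 control and 476 mutant barcodes. Depth was 82313680 and 77251738 UMIs over kept cells, and counting intervals reflect that depth alone. Cells were integrated and clustered with Seurat 5.3.0 (2000 variable genes, 30 dimensions, resolution 0.05, without 77 genes: the Hedgehog genes, Tfap2a and Tfap2b, genes named in the study, Xist, Tsix and Y-linked genes). Mesenchyme was reclustered at 0.2 and neural cells at 0.1 in 20 dimensions. The 0.05 resolution gave 1 neural class, so neuron-like and brain progenitor-like cells and the finer neural clusters were taken from a resolution of 0.4, a step chosen after the data were seen, as was the TFAP2 motif. Names rest on fixed marker lists. Doublets were called with Scrublet (scanpy 1.11.5) and not removed in the main values.

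UMI sums were scaled to CPM, with exact Poisson intervals, exact conditional binomial intervals for ratios and Clopper-Pearson intervals for shares of cells thinned to 5000 UMIs, all at 95%. Ratios were counted against genes with 100 or more UMIs in at least 1 library, and the calculation was tested on simulated data. No p-value was computed, since neither genotype has a replicate. Alternatives were scaling by TMM (edgeR 4.0.16), doublet removal, thinning, equal weight per cell, no integration, a finer resolution, fixed cluster shares and a stricter cell filter. All 9 members were named throughout; other pathway genes were named at 100 or more UMIs, a difference of 1.5-fold or more and an interval that leaves out 0, and exceptions are given as values. The members and lists were chosen with earlier results of these data known. Whether counting used strand is not given in the sources used here.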

Additional observations from a re-analysis of the deposited data

Results flagged for a closer look

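Directions opposed each other between clusters for several genes, with counting intervals on opposite sides of 0; with 1 library a genotype these contrasts were not tested. Ptch1 had a log2 ratio of 0.41 in the Dlx3-led mandibular-like cells and -0.52 in the mural-like cells. Gli3 had 0.63 in the mural-like and -0.19 in the Hand2-led mandibular-like cells. Gas1 had 0.22 in the mural-like and -0.30 in the Hand2-led cells. Shh had 1.99 in the mesenchyme-like class and -0.49 in the neural class; in mesenchyme it rests on 20 control and 60 mutant UMIs, of which 9 and 46 lay in the doublet-rich cluster, and without that cluster 11 and 14 UMIs gave 0.80 (-0.45 to 2.08). Among neural clusters, Shh had 1.54 in the sensory neuron-like cluster and -0.75 in the cluster of progenitors led by Ttr, Fgf17 and Fgf8.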

How the results depend on the processing

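Among ratios whose interval left out 0, those of the 4 classes kept their direction under the alternatives that gave a value. Among the clusters, 2 reversed in thinned cells, Smo in frontonasal-like cells (-0.0171, from 0.14) and Gas1 in Dlx3-led cells (-0.0014, from 0.07). The frontonasal-like Gli1 moved to 0.90, Gli2 to 0.46 and Hhip to 0.44 in thinned cells, and Ptch1 to 0.25 when every cell counted equally. Gas1 was 0.08 in maxillary-like cells and Shh -0.24 in floor plate-like cells when every cell counted equally, and Shh was 3.22 in thinned cells and 2.42 with equal weight in the sensory neuron-like cluster. In Dlx3-led cells Gli3 was 0.09 in thinned cells and 0.12 with equal weight, and Gas1 was 0.03 with TMM. Some class values moved as well. In mesenchyme-like cells, the Gas1 ratio was 0.023 with cluster shares held fixed and the Ptch1 ratio 0.31 with the stricter cell filter. The number of genes 1.5-fold or more apart there was 374 at 100 UMIs, 884 at 30 UMIs and 5981 with no minimum beyond 1 UMI. The Shh ratio in mesenchyme was 1.16 with cluster shares held fixed and 0.80 without the doublet-rich cluster. In neuron-like cells Gli1 was -1.50 with cells weighted alike, while Boc in thinned brain progenitor-like cells was 0.08. Without glia-like cells rich in neuron-like markers, an alternative chosen after seeing the data as were the finer frontonasal-like cells and the removal of the doublet-rich cluster, Gas1 was 0.53, Gli3 -0.23 and Boc 0.69. TMM moved no class by more than 0.06. The causes were not tested. Runs without integration or at a higher resolution gave no separate value for neuron-like and brain progenitor-like cells, nor fixed shares for glia-like cells. No paired analysis was possible because the groups are 1 library each, and for the same reason no replicate could be left out. Depth limits Shh in mesenchyme, with 20 and 60 UMIs, and Hhip, with 160 and 164.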
